A study of Mus musculus with 12 samples.

Results

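The 84 genes that encode the proteins of the cytosolic ribosome were followed in the sciatic nerves of 1-month-old mice. They were chosen by name: all genes of the table whose symbol is that of a large-subunit protein (Rpl, Rplp) or a small-subunit protein (Rps, Rpsa) of the ribosome in the cytosol, or of one of its paralogues, with a mean of at least 1 CPM (a count scaled to the size of the library) over the 12 libraries. Of the 43432 genes in the table, 88 matched by symbol and 84 reached that level, 49 of the large subunit and 35 of the small subunit. Just above the minimum lay Rpl3l, with a mean of 2.15 CPM, and Rpl6l, with 5.29 CPM. Just below it lay Rps12l1, with 0.734 CPM, and Rpl24, with 0.530 CPM, and Rpl39l and Rpl10l were lower still. In the GENCODE M21 annotation, 4 of the 84 are classed as processed pseudogenes, namely Rps3a2, Rps3a3, Rpl6l and Rps4l, and they are described together with the other 80.

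RNA was sequenced from 3 groups of 4 mice on the 129/SvPas background, with 3 males and 1 female per group and 1 nerve per mouse. WT control mice were compared with Mtmr2 KO mice, which are null for the phosphoinositide phosphatase myotubularin-related protein 2 and serve as a model of the demyelinating neuropathy CMT4B1, and with Mtmr2 KO mice that received niacin. For the first 2 groups the labels give no treatment, whereas the study's text speaks of vehicle for the Mtmr2 KO mice set against niacin. Niacin was injected intraperitoneally at 120 mg/kg from postnatal day 10 to day 21 and then given by gavage as a sustained-release form (Niacin-SR) to day 30, when nerves were taken. The labels give each library a number, 4497 to 4500 for WT control, 4501 to 4504 for Mtmr2 KO and 4505 to 4508 for niacin-treated Mtmr2 KO, and these numbers are used below.

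Ribosomal proteins assemble with ribosomal RNA into the large and small subunits that translate mRNA, and each subunit needs its proteins in near-equal numbers. Most of their mRNAs start with a run of pyrimidines at the cap, the 5′ terminal oligopyrimidine (TOP) tract, through which mTOR signalling and the protein LARP1 set how well, and for how long, the mRNAs are used. Schwann cells draw on this machinery while they build myelin, and mTOR activity in them shapes myelin growth. A few paralogues are tissue-restricted, such as Rpl3l, which replaces Rpl3 in striated muscle.

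Since the TOP tract is the feature for which these mRNAs are known, the start is shown here for 3 members that were high in the same libraries as most of the others (Rps27, Rps6, Rpl35) and for 3 that stood apart. RefSeq promoters on GRCm38.p6 were found for 60 of the 84 genes. Each line gives 30 bases of the gene's own strand, 10 before and 20 from the RefSeq start, and capitals mark runs of at least 6 pyrimidines (C and T). Rps27 (chr3:90213629-90213658, minus strand) encodes a small-subunit protein, Rps6 (chr4:86857348-86857377, minus strand) the small-subunit protein that S6 kinase phosphorylates downstream of mTOR, and Rpl35 (chr2:39005112-39005141, minus strand) a protein near the exit of the nascent-peptide tunnel. Rplp2 (chr7:141447641-141447670, plus strand) encodes a protein of the stalk that recruits elongation factors, Rpl7l1 (chr17:46782637-46782666, minus strand) a paralogue of Rpl7, and Rps27l (chr9:66946076-66946105, plus strand, the upstream one of its 2 RefSeq starts) a paralogue of Rps27 known as a p53 target.
Rps27: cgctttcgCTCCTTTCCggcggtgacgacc
Rps6: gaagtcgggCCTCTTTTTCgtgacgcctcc
Rpl35: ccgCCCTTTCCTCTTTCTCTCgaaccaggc
Rplp2: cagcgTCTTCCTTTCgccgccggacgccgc
Rpl7l1: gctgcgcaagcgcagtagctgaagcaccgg
Rps27l: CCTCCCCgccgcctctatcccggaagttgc
A run of at least 6 pyrimidines in such a window was found in 39 of the 72 RefSeq promoters of members (54.2%) and in 28.7% of all 32851 promoters of the table. The first 3 members printed all have one, whereas Rps25 and Rpl37, high in the same libraries, had longest runs of 4 and 3. Rpl35 is named only for its start. The motif CTTCCG, the core of ETS-family sites, searched on both strands of the 300-base promoters, was found in 59.7% of the members' promoters against 16.9% of all promoters. A CTTCCG match can overlap a pyrimidine run, since most of its letters are pyrimidines. Both are counts of letters in a window and not mapped start sites.

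Library depth and identity were checked first. The libraries held 20763951 to 33191106 counts, of which 467007 to 1418877 fell on the 84 genes. Mtmr2, the targeted gene, had 128 to 161 CPM in the WT control libraries, 69.4 to 84.6 CPM in Mtmr2 KO replicates 4501, 4502 and 4504 and 66.7 to 73.4 CPM in the niacin-treated libraries, but 143 CPM in the library labelled Mtmr2 KO replicate 4503, which lies within the WT range. In the comparisons with the Mtmr2 KO group, medians of the members are therefore given with and without that library. Medians of the other lists are not. Xist, read from the inactive X chromosome, was high in 1 library of each group (4498, 4502 and 4506). Markers of myelinating Schwann cells, 10 genes, summed to between 63452 and 120981 CPM. Of 15 skeletal muscle markers, the sum was 48.5 to 158 CPM in 10 libraries but 4235 and 4248 CPM in niacin-treated replicates 4506 and 4507.

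The 84 genes together took between 1.65% and 5.81% of all counts of a library. In the WT control libraries the share was 1.65%, 1.76%, 1.81% and 2.37% (mean 1.895% ± 0.321, SD, n = 4). In the Mtmr2 KO libraries, in the order of their numbers, it was 1.79%, 5.81%, 2.00% and 3.15% (3.19% ± 1.85), and in the niacin-treated libraries 2.79%, 2.48%, 3.33% and 3.63% (3.06% ± 0.520). Every niacin-treated library lay above every WT control library, while the Mtmr2 KO libraries ran from within the WT range to well above the niacin-treated group, with replicate 4502 the highest of the 12. The share of the mitochondrially encoded genes ran from 2.10% to 2.80% in WT control libraries, was 2.15%, 6.997%, 2.09% and 2.47% in the Mtmr2 KO libraries and 3.496% to 5.43% in the niacin-treated libraries. It was thus high in 4502 and in the niacin-treated libraries as well, but not in 4504, and its part in the members' shares was not tested. Because these are shares of RNA from whole nerves, a change in the number of cells of one type and a change in the RNA of each cell cannot be told apart.

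**Figure D1:**
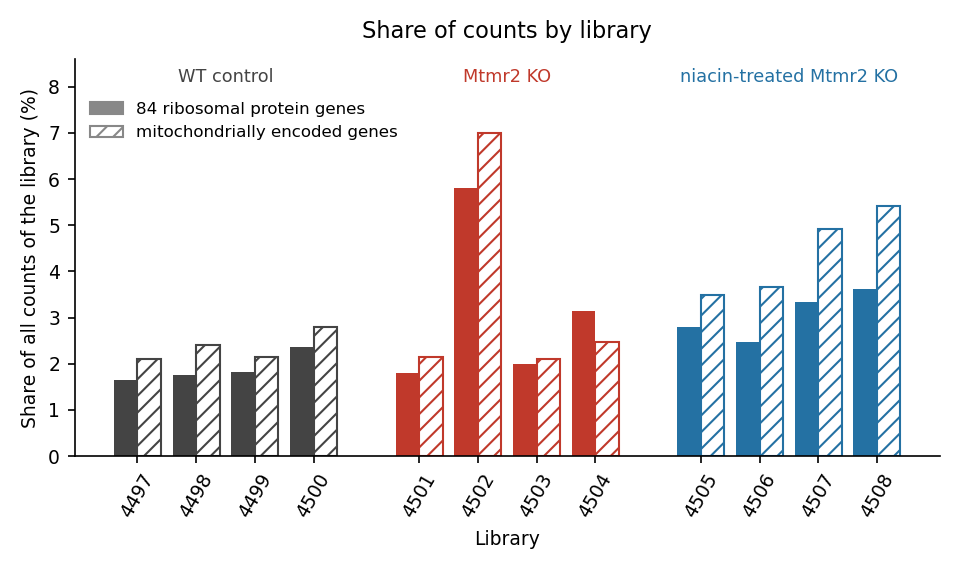
Share of all counts (%) taken by the 84 ribosomal protein genes (filled bars) and by mitochondrially encoded genes (hatched bars) in each of the 12 libraries, coloured by group, with no error bars because each bar is 1 library. The filled bars run from 1.65% to 2.37% in WT control, from 1.79% to 5.81% in Mtmr2 KO and from 2.48% to 3.63% in niacin-treated Mtmr2 KO.

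Within a library the genes stood together. On the scale of log2 CPM minus the mean of the 4 WT control libraries, the median over the 84 genes was −0.13, −0.13, −0.05 and 0.32 in the WT control libraries and −0.02, 1.84, 0.19 and 0.78 in the Mtmr2 KO libraries. It was 0.65, 0.42, 0.85 and 0.87 in the niacin-treated libraries, while the median over all 17257 genes tested stayed between −0.01 and 0.04 in every library. Replicate 4502 gave the highest Mtmr2 KO value for 81 of the 84 genes, replicate 4504 the second highest for 81, replicate 4500 the highest WT value for 83 and replicate 4506 the lowest niacin-treated value for 80. The interquartile range in 4502 was 1.70 to 1.96, so the genes differed far less from each other than the libraries did. The order of the genes by abundance was also kept, with Spearman's rho between 0.961 and 0.998 over the 84 genes for the 66 pairs of libraries. This is a description over genes that share their libraries. Counts of large-subunit over small-subunit genes stood at a ratio of 1.41 to 1.44 in WT control, 1.31 to 1.44 in Mtmr2 KO and 1.35 to 1.41 in niacin-treated libraries.

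**Figure D2:**
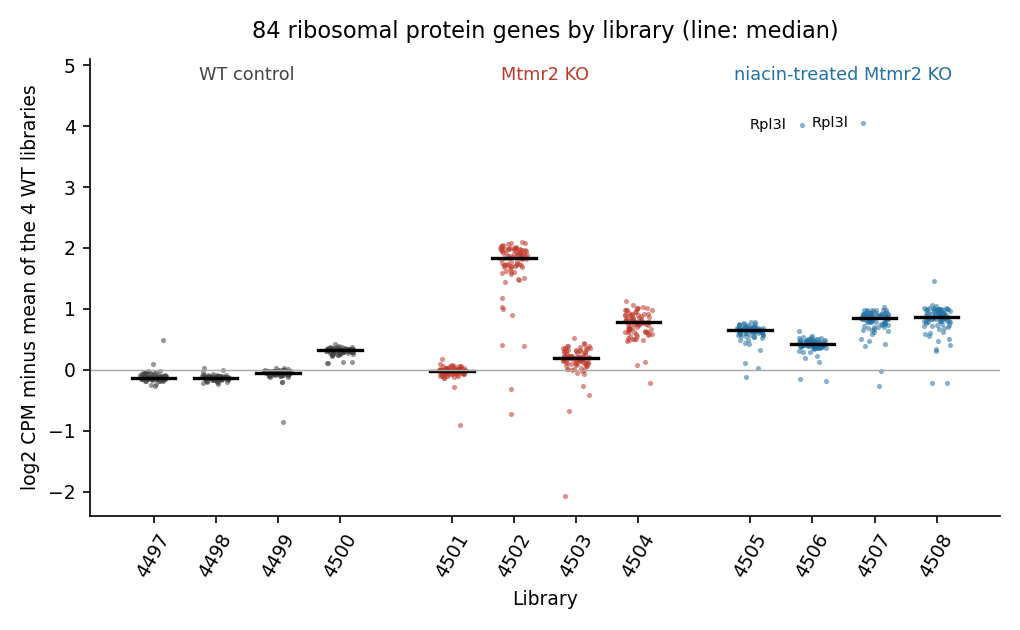
Each point is 1 of the 84 genes in 1 library, on the scale of log2 CPM minus the mean of the 4 WT control libraries, and each line is the library's median. The cloud sits at a median of 1.84 in 4502 and 0.78 in 4504, near 0 in 4501, and at 0.42 to 0.87 in the niacin-treated libraries, and Rpl3l stands apart above 4 in 4506 and 4507.

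Per kilobase of transcript, Rplp1 was the most abundant member at 1885 CPM per kb over the 12 libraries, followed by Rps14 with 1122, Rpl41 with 982 and Rpl13a with 876. Rplp1 encodes a stalk protein, Rps14 a protein of the small-subunit platform, Rpl41 the shortest protein of the ribosome and Rpl13a a large-subunit protein that also takes part in translational control by interferon. Of the 84 genes, 69 lay between 100 and 1000 CPM per kb, with a median of 361, although 1 annotated length per gene was used and long annotated forms lower the value. The lowest were the paralogues and pseudogenes: Rpl3l had 1.56, Rpl6l 6.07 and Rps4l 12.6 CPM per kb. Reads of these genes are hard to assign, since 71 of the 84 shared at least 1 stretch of 150 bases, the length of a read, with another annotated transcript, and 22 shared more than 50% of them. In Rps27 97.96% of the stretches were shared, whereas Rps3, Rpl8, Rps15, Rpl39 and Rpl22 shared none. Rpl24, which fell below the minimum, shared 72.5%. Between Mtmr2 KO and WT control the median log2 fold change was 0.89 for those 22 genes and 0.82 for the 13 without any shared stretch.

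The first comparison asked how loss of Mtmr2 changed these genes. Means were higher in Mtmr2 KO nerves for 82 of the 84 members. The median of their log2 fold changes was 0.87 (lowest −0.87, highest 1.10), against 0.03 for all 17257 genes tested. None of the 84 passed an adjusted p of 0.05 (edgeR quasi-likelihood over the 12 libraries, Benjamini-Hochberg), where 0.0464% of all genes were called higher and 0.22% lower. At an unadjusted p under 0.05, 79 members were higher and 1 lower, against 9.35% of all genes higher and 7.9% lower. DESeq2 over the 12 libraries called 7 members higher (Rps27, Rps25, Rpl37, Rpl17, Rpl14, Rps6 and Rps16, of which Rpl14 and Rps16 are named only for this call, log2 fold changes 1.00 to 1.11) and called 1.83% of all genes higher and 2.33% lower, but DESeq2 on the 8 libraries of the 2 groups called none, against 0.894% of all genes higher and 1.74% lower. Only Rps4l had groups that did not overlap, against 5.48% of all genes lower without overlap, and none was higher without overlap against 3.85% of all genes.

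The spread between Mtmr2 KO libraries was as large as the difference. Rps27 had the smallest p of all members. The WT control libraries held 108, 120, 126 and 167 CPM (mean 130 ± 25.7, SD, n = 4) and the Mtmr2 KO libraries 129, 544, 184 and 262 CPM (280 ± 184). Replicate 4501 lay within the WT range and the other 3 above it, so the groups overlapped. The log2 fold change was 1.10 ± 0.34 (SE), with an adjusted p of 0.141 (edgeR quasi-likelihood, Benjamini-Hochberg).

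The next smallest p belonged to Rps25, Rpl17, Rplp0 and Rpl37, with log2 fold changes of 1.02, 1.08, 0.81 and 1.07 and adjusted p of 0.144 to 0.159 in edgeR with Benjamini-Hochberg adjustment. Rps25 is a small-subunit protein needed by several viral internal ribosome entry sites, and Rplp0 is the base of the stalk. Rplp0 had 422, 371, 416 and 511 CPM in WT control and 482, 1304, 563 and 657 CPM in Mtmr2 KO. Again 1 Mtmr2 KO library, 4501, fell inside the WT range and 4502 was more than all others.

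Rps6 is the S6 kinase substrate whose start is printed above. It had 199, 211, 227 and 276 CPM in WT control and 235, 932, 289 and 403 CPM in Mtmr2 KO. Its log2 fold change of 1.03 ± 0.34 (SE) had an adjusted p of 0.162 in edgeR with Benjamini-Hochberg adjustment. Of the members with known roles outside the ribosome, Rpl5, Rpl11 and Rpl23, which bind and restrain MDM2, had log2 fold changes of 0.83, 0.88 and 0.81, and Rps19, the gene most often mutated in Diamond-Blackfan anaemia, had 0.83. Rps27a, which is made as a fusion with ubiquitin, had 0.92. None passed the test.

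Without replicate 4502 the median log2 fold change of the 84 genes fell from 0.87 to 0.35, and no member was called, where 0.0452% of all genes were called higher and 0.401% lower. At an unadjusted p under 0.05 in edgeR, 13 of the 83 members other than Rpl3l were then higher and 1 lower, in place of 79 and 1. Without the 3 libraries with high Xist, 4502 among them, the median was 0.31. There 1 of the 83 was higher and 1 lower at that level, and no gene was called. Shares of all genes at that unadjusted level are not given for these fits, so the members' counts there are not set against a background. Without the library labelled Mtmr2 KO replicate 4503 the median was 1.05, also with no member called, against 0.00574% of all genes higher and 0.0287% lower. Without replicate 4501, whose levels lay in the WT range, 6 members were called higher, against 1.15% of all genes higher and 1.45% lower. With offsets for GC content and transcript length the median was 0.67 over the 12 libraries as over the 8, where no member and 0.0296% of all genes (all lower) were called on the 8.

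**Figure D3:**
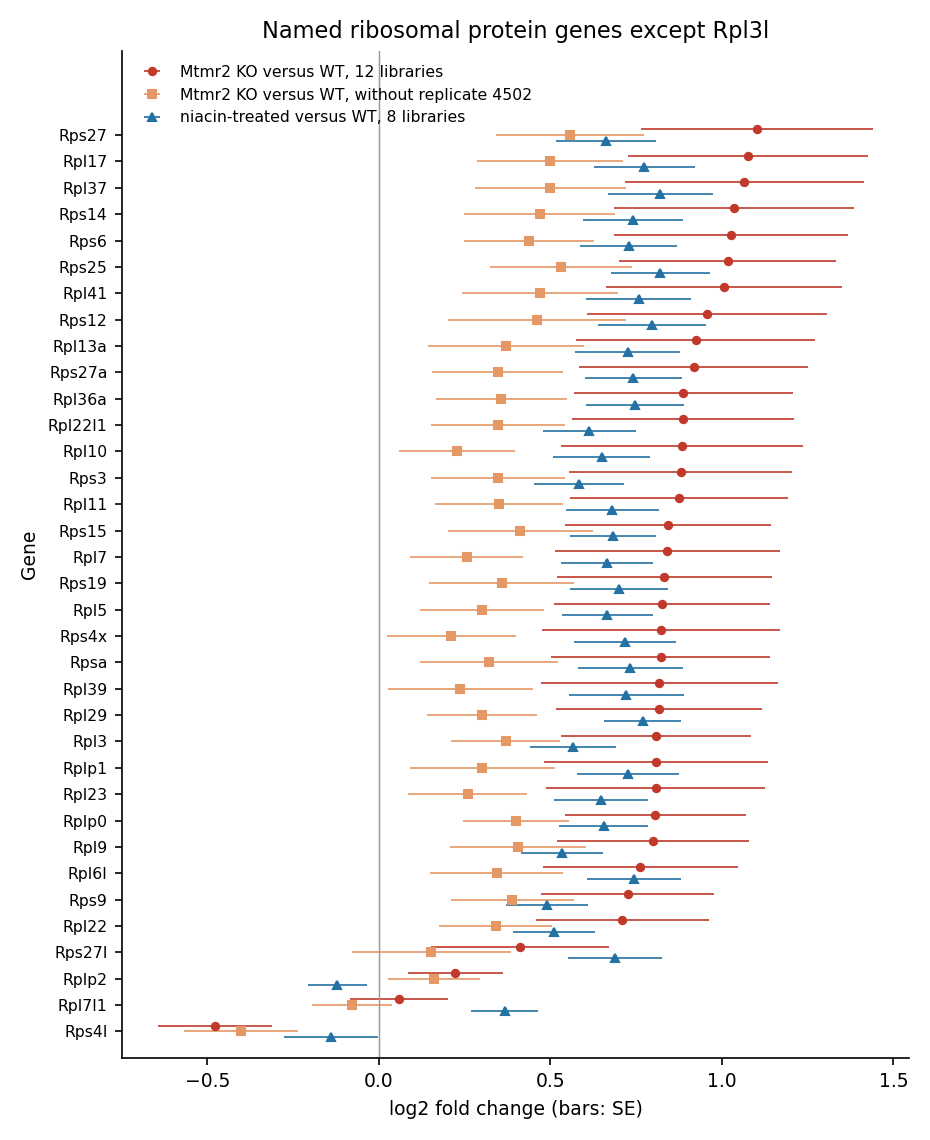
Log2 fold changes (x axis, bars are SE) of the members named by rule, except Rpl3l, for Mtmr2 KO versus WT control with all 12 libraries (circles) and without replicate 4502 (squares), and for niacin-treated Mtmr2 KO versus WT control on their 8 libraries (triangles). Rps27 falls from 1.10 to 0.56 without 4502, and Rps4l, Rpl7l1 and Rplp2 stand apart from the rest at the foot of the plot.

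The second comparison asked whether niacin moved these genes from their Mtmr2 KO level. Relative to Mtmr2 KO without niacin, 80 of the 84 genes had a lower mean under niacin, with a median log2 fold change of −0.18 against −0.04 for all genes. Rpl3l reached the minimum level only through niacin-treated libraries, so it is left out of the counts of calls here and described on its own further on. Of the other 83 members edgeR over the 12 libraries called none, where 0.695% of all genes were called higher and 0.73% lower. At an unadjusted p under 0.05 in that fit, none was higher and 1, Rplp2, lower, against 8.01% of all genes higher and 12.1% lower. DESeq2 over the 12 libraries called none of the 83 either, against 2.85% of all genes higher and 4.17% lower. This direction rested on 1 library: without replicate 4502 the median was 0.33, 82 of the 83 had a higher mean under niacin, and 1, Rpl7l1, was called higher against 9.85% of all genes. Without the 3 libraries with high Xist, Rpl7l1 was again the one called, against 8.63% of all genes. No member had groups that did not overlap, where 3.6% of all genes were higher and 3.38% lower without overlap. Without the library labelled Mtmr2 KO replicate 4503 the median was −0.36 and no member was called, against 0.0344% of all genes higher and 0.0402% lower.

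Among the 5 members with the smallest p towards lower levels, Rplp2 came first. It had 147, 198, 150 and 209 CPM in Mtmr2 KO and 139, 136, 149 and 129 CPM under niacin. The highest niacin-treated value lay between the 2 lowest Mtmr2 KO values, so the groups overlapped. The log2 fold change was −0.35 ± 0.14 (SE) with an adjusted p of 0.181 (edgeR quasi-likelihood, Benjamini-Hochberg). Rps27, Rpl9, Rps9 and Rps3 followed with log2 fold changes of −0.45, −0.27, −0.24 and −0.30, and all 4 were above 0, at 0.08, 0.10, 0.08 and 0.21, without replicate 4502. Rpl9 is a large-subunit protein, Rps9 helps to set decoding accuracy in the small subunit, and Rps3 lines the mRNA entry and also has a role in DNA repair.

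The third comparison set niacin-treated Mtmr2 KO nerves against WT control. All but 2 members, Rplp2 and Rps4l, had a higher mean. Their log2 fold changes had a median of 0.70 against 0.02 for all genes. Without Rpl3l, 81 of the other 83 had a higher mean, and the median was also 0.70. In 78 of the 84 every niacin-treated library was above every WT control library, against 14.8% of all genes. No member lay wholly below, against 16.6% of all genes. Whether this passed the test depended on which libraries set the spread and on the method. In the edgeR fit over the 12 libraries no member was called, and neither was any of the 17257 genes, although 41 of the 83 members other than Rpl3l had an unadjusted p under 0.05, all higher, against 10.1% of all genes. Fitted on the 8 libraries of these groups alone, so that the spread of the Mtmr2 KO group did not enter, the same test called 81 of these 83 members higher (log2 fold changes 0.36 to 0.82, adjusted p 0.0022 to 0.031), against 16.3% of all genes, and called none lower, against 17.6%.

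Other choices fell between these values, again counted over the 83. Over 11 libraries, without replicate 4502, edgeR called 76 higher against 8.9% of all genes, and without both 4502 and 4503 it called 79, against 13.8% of all genes higher and 15.8% lower. DESeq2 on the 8 libraries called 81 higher, against 17.5% of all genes higher and 19% lower. Fitted over the 12 libraries, limma-voom with sample weights also called 81, against 20.8% of all genes higher and 21.5% lower. DESeq2 over the 12 libraries called none, against 1.58% of all genes higher and 5.64% lower. Without the 3 libraries with high Xist, edgeR called 35 members higher, against 4.11% of all genes higher and 8.25% lower. With offsets for GC content and transcript length and the 8 libraries, 69 members were called higher and none lower, against 8.31% of all genes higher and 7.7% lower, with a median of 0.50. The 14 that were not called there included Rpl10, Rpl23, Rpl39, Rps27a and Rps27l.

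Rps15, Rpl29 and Rplp1 show the size of the difference. Rps15 is a small-subunit protein whose tail reaches the decoding site, and none of its read-length stretches was shared with another gene. It had 232, 226, 253 and 308 CPM in WT control and 401, 351, 451 and 424 CPM under niacin. The lowest niacin-treated library, 4506, was above the highest WT control library, 4500. The log2 fold change was 0.68 ± 0.13 (SE) on the 8 libraries with an adjusted p of 0.0037 (edgeR quasi-likelihood, Benjamini-Hochberg), and 0.189 over the 12 libraries. A two-sided exact permutation test of log2 CPM gave p = 0.0286, the smallest that 70 ways to draw 4 of 8 libraries allow, and 0.0911 after Benjamini-Hochberg adjustment over 252 such tests.

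Rpl29 had the smallest p on the 8 libraries. It encodes a large-subunit protein that also binds heparin at the cell surface. The WT control libraries held 39.0, 40.1, 40.8 and 44.5 CPM and the niacin-treated ones 67.3, 56.0, 81.0 and 74.4 CPM. These groups did not overlap, and the log2 fold change of 0.77 ± 0.11 (SE) had an adjusted p of 0.0022 on the 8 libraries and 0.16 over the 12 libraries in edgeR with Benjamini-Hochberg adjustment. Rplp1 had 585, 570, 623 and 799 CPM in WT control and 1022, 864, 1138 and 1215 CPM under niacin, again without overlap, and in Mtmr2 KO 642, 2130, 628 and 1110 CPM.

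A few members did not follow the block. Rplp2, the partner of Rplp1 in the stalk dimer, had 146, 142, 151 and 164 CPM in WT control and 147, 198, 150 and 209 CPM in Mtmr2 KO. In 4502, where Rplp1 stood at 2130 CPM, Rplp2 stood at 198 CPM. Its log2 fold change under niacin versus WT control was −0.12 ± 0.09 (SE) on the 8 libraries, not called at an adjusted p of 0.301 in edgeR with Benjamini-Hochberg adjustment. Its start carries a pyrimidine run as do those of Rps27 and Rps6, 9.33% of its read-length stretches were shared, and the snoRNA gene Snora52 lies within it on the same strand.

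Rps4l, annotated as a transcribed processed pseudogene and paired here with the X-linked Rps4x, had 13.1, 12.6, 11.5 and 16.7 CPM in WT control and 10.9, 8.01, 8.32 and 11.5 CPM in Mtmr2 KO. Every Mtmr2 KO value was below every WT control value, by a narrow margin. The log2 fold change was −0.48 ± 0.17 (SE) with an adjusted p of 0.181 (edgeR quasi-likelihood, Benjamini-Hochberg). Rps4x itself had 394, 385, 416 and 542 CPM in WT control and 401, 1564, 464 and 643 CPM in Mtmr2 KO. Thus 4502 was the library with the highest Rps4x and the lowest Rps4l of all 12.

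Rpl7l1 had 58.2, 55.5, 61.2 and 65.8 CPM in WT control, 57.7, 79.5, 50.01 and 63.6 CPM in Mtmr2 KO and 80.9, 65.9, 78.5 and 83.5 CPM under niacin. Its log2 fold change between Mtmr2 KO and WT control was 0.06 ± 0.14 (SE), whereas Rpl7 had 0.84 ± 0.33. Under niacin versus WT control it was 0.37 and called on the 8 libraries, at an adjusted p of 0.0147 in edgeR with Benjamini-Hochberg adjustment. Rps27l likewise had 0.41 ± 0.26 between Mtmr2 KO and WT control where Rps27 had 1.10. Under niacin versus WT control Rps27l had 0.69 on the 8 libraries (adjusted p 0.0045 in edgeR with Benjamini-Hochberg adjustment), and 0.11 once offsets for GC content and length were used (adjusted p 0.386). By contrast the paralogue Rpl22l1 had 0.89 between Mtmr2 KO and WT control, close to the block, and Rpl22 0.71. The X-linked members Rps4x, Rpl10, Rpl36a and Rpl39 had 0.82 to 0.89. Among standard members, the next smallest log2 fold changes were those of Rpl8, Rps2 and Rpl4, with 0.44, 0.50 and 0.54, which were chosen after their values were seen.

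Rpl3l was the member with the largest log2 fold change under niacin, and it reached the mean of 1 CPM for the set only through those libraries, so its difference is given as a description. It had 0.763, 0.539, 0.254 and 0.682 CPM in WT control, 0.244, 0.403, 0.0640 and 0.577 CPM in Mtmr2 KO and 0.538, 9.70, 9.86 and 1.58 CPM in niacin-treated nerves. Replicates 4506 and 4507 alone were high, and 4505 lay within the WT range. Without these 2 libraries edgeR called no gene at all in niacin-treated versus Mtmr2 KO. The same 2 libraries held the raised skeletal muscle markers, with Myh4, the fast type IIb myosin, at 974 and 662 CPM and Acta1, skeletal actin, at 474 and 400 CPM against 1.56 to 20.5 CPM elsewhere. Of the 15 muscle markers, 13 were tested, and edgeR over the 12 libraries called 9 higher under niacin versus Mtmr2 KO, against 0.695% of all genes. The 9 were Acta1, Atp2a1, Ckm, Eno3, Myh2, Mylpf, Tnni2, Tnnt3 and Ttn, while Tnnc2 was at or near 0 in every library. Fitted on the 8 libraries of these groups alone, edgeR called none of the 13, nor any other gene. Rpl3, the member that Rpl3l replaces in muscle, was not low in them, with 436 and 531 CPM against 497 and 533 CPM in 4505 and 4508.

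**Figure D4:**
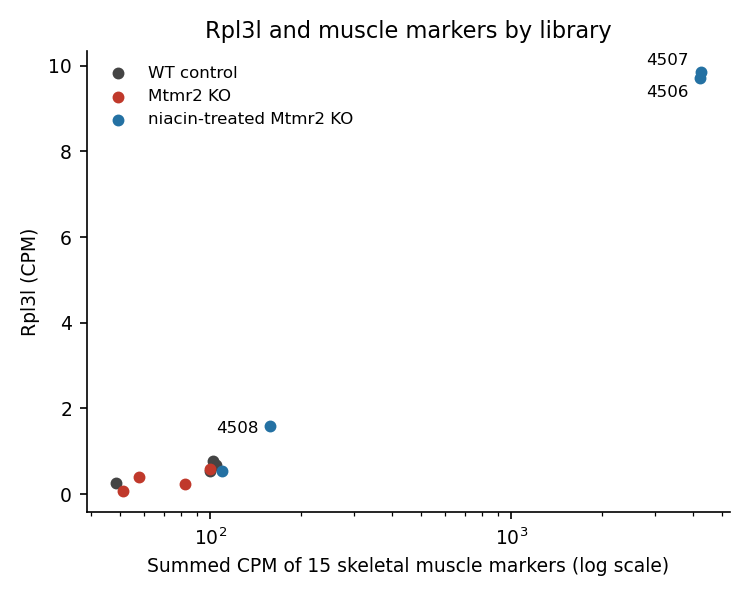
Rpl3l (CPM, y axis) against the summed CPM of 15 skeletal muscle markers (x axis, log scale), with 1 point per library coloured by group. Replicates 4506 and 4507 lie at 9.70 and 9.86 CPM of Rpl3l and above 4000 CPM of muscle markers, and the other 10 libraries lie at or below 1.58 CPM of Rpl3l.

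Transcript length and base composition moved with the same libraries. The members are short, with a median longest annotated transcript of 1077 bases against 3138 for the other genes tested, and 37 of the 84 are under 1000 bases. Other genes with transcripts under 700 bases, 959 genes, had a median of 0.90 above WT in 4502, 0.32 in 4504, 0.03 in 4501, 0.21 in 4500 and 0.21 to 0.57 in the niacin-treated libraries. Members of that length had 1.88 in 4502 and 0.81 in 4504, and members from 2500 to under 4000 bases had 1.73 and 0.86, where other genes of that length had −0.08 and −0.02. The same held for base composition: other genes ran from 0.51 at a GC content under 42% to −0.53 at 58% or more in 4502, while the members had 1.72 to 1.96 in every bin. The members' values thus lay above those of other genes in the same bins in these libraries. The bins rest on the longest annotated transcript, which can be far longer than the 1 used for CPM per kb. Rpl9 had 2690 against 738 bases and Rpl18 2989 against 679, whereas Rps20 had 3706 for both. In the longer bins, members and other genes may therefore differ in the length of the mRNA present. The part of length and composition was tested only through the fits with offsets above, which used the same longest transcripts.

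**Figure D5:**
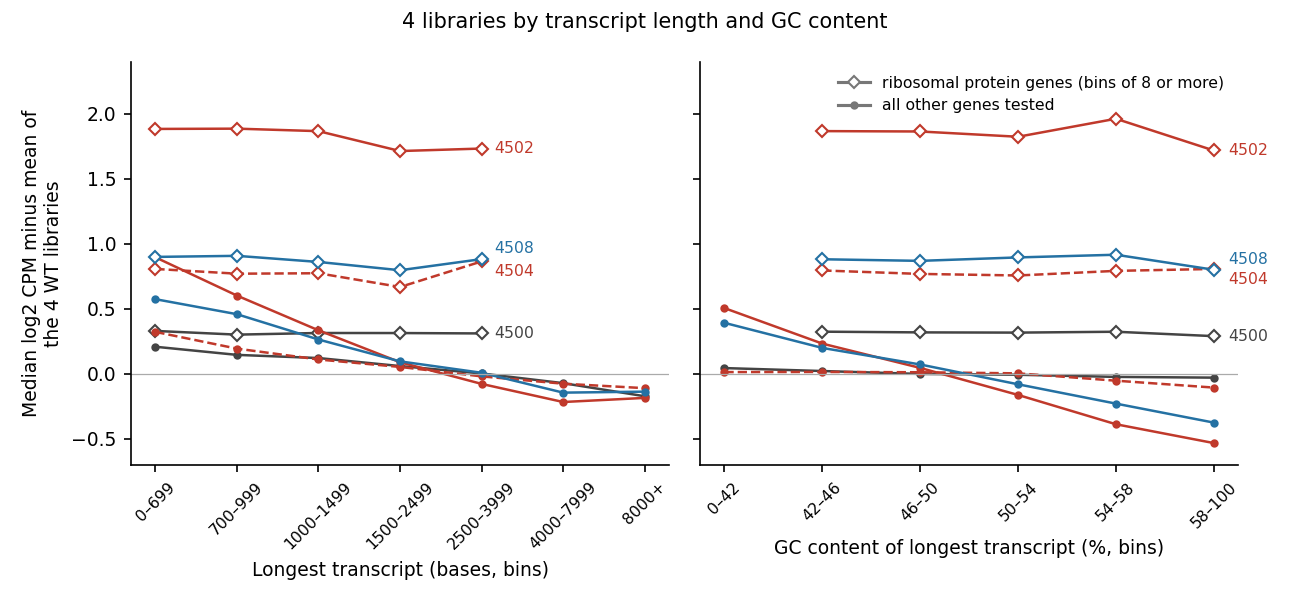
Median of log2 CPM minus the mean of the 4 WT control libraries in bins of the longest annotated transcript (left) and its GC content (right). Diamonds are the ribosomal protein genes and dots all other genes tested. Shown are 1 WT control library (4500), 2 Mtmr2 KO libraries (4502 solid, 4504 dashed) and 1 niacin-treated library (4508). Other genes fall with length, from 0.90 at the shortest to −0.22 at 4000 to 8000 bases in 4502, while the diamonds, drawn for bins of 8 or more members, stay between 1.71 and 1.88 in that panel.

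Genes around the ribosome were read from lists. Of 25 translation factors and other genes of the TOP class, all 25 had a higher mean in Mtmr2 KO (median log2 fold change 0.57 against WT control), and none was called by edgeR over the 12 libraries. Without replicate 4502 the median was 0.24, with 23 of the 25 higher. Eef1a1, the elongation factor that brings aminoacyl-tRNA, was the most abundant, with 3297, 3154, 3371 and 3868 CPM in WT control and 3314, 11694, 4037 and 4753 CPM in Mtmr2 KO, so that 4501 again lay within the WT range. Fau, whose product is cut to the small-subunit protein eS30, had a log2 fold change of 1.07, while Eef2, the translocation factor, had 0.32 and Tpt1 0.37. Eif3f was the member of that list called lower under niacin versus Mtmr2 KO in edgeR over the 12 libraries, with 110, 122, 164 and 124 CPM in Mtmr2 KO and 89.7, 89.4, 84.4 and 79.8 CPM under niacin, which do not overlap. That call was lost on the 8 libraries of the 2 groups, where no gene was called. Under niacin versus WT control, 15 of the 25 were called higher and 1, Eif3f, lower on the 8 libraries, with a median of 0.41. That fit called 16.3% of all genes higher and 17.6% lower.

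Ribosome biogenesis genes had smaller fold changes by the median. Of 30, 20 had a higher mean in Mtmr2 KO, with a median of 0.18 (0.04 without 4502). Under niacin versus WT control on the 8 libraries, 18 were called higher and 3 lower (Bysl, Polr1a and Polr1b), with a median of 0.34. That fit called 16.3% of all genes higher and 17.6% lower. Ncl (nucleolin) had a log2 fold change of 0.48 in Mtmr2 KO versus WT control, Ubtf, the factor for ribosomal RNA transcription, −0.02, and Pes1 0.38. Of 14 genes of the mTOR pathway that acts on TOP mRNAs, 7 had a higher and 7 a lower mean in Mtmr2 KO (median −0.01). On the 8 libraries 1, Eif4e, was called higher and 4, Eif4ebp2, Eif4g1, Larp1 and Rptor, lower under niacin versus WT control, against the same 16.3% and 17.6%. Larp1, the TOP mRNA binding protein, had a log2 fold change of −0.51 there. Of the 11 p53 targets tested, 6 had a higher mean in Mtmr2 KO (median 0.11), which turned to 4 of 11 and a median of −0.14 without 4502. Under niacin versus WT control on the 8 libraries, 4 were called higher and 4 lower, against the same shares of all genes. The mitochondrial ribosomal proteins, a separate set of 76 tested genes added after the data were seen, had medians of 0.11, 0.15 and 0.30 in the order of the comparisons above. Without 4502 the first turned to −0.04, with 26 of 76 higher in place of 58, and the second was 0.31. In all these lists the 12-library fit called only Eif3f, lower, and the p53 target Plk2, higher, both under niacin versus Mtmr2 KO and neither on the 8 libraries of those groups.

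Markers of the other cells of the nerve are given beside the block. Macrophage markers, 8 genes, summed to 474 to 546 CPM in WT control, 451 to 868 CPM in Mtmr2 KO with 4502 highest, and 561 to 852 CPM under niacin. The median log2 fold change of the macrophage markers in Mtmr2 KO versus WT control was 0.26, and −0.09 without 4502. Markers of myelinating Schwann cells had a median log2 fold change of 0.16 (0.28 without 4502) in Mtmr2 KO versus WT control and −0.17 under niacin versus WT control, and those of non-myelinating Schwann cells 0.14 (0.24 without 4502) and −0.33. Adipocyte markers had −0.52 in Mtmr2 KO versus WT control, with Lep and Plin1 called lower by edgeR over the 12 libraries. Without 4502 the median was −1.36 and Adipoq, Lep and Plin1 were called, while on the 8 libraries of the 2 groups none was. These markers summed highest in 4502 at 7977 CPM and lowest in 4504 at 1205 CPM, the 2 Mtmr2 KO libraries in which the ribosomal protein genes were highest. Sums for nerve fibroblast and perineurium ran from 9082 to 19304 CPM, for red blood cells from 189 to 1081 CPM, for proliferation from 16.2 to 68.2 CPM, for sensory neuron cell bodies from 14.0 to 58.03 CPM with 4502 highest, and for neutrophils from 1.05 to 16.3 CPM. Their part in the members' levels was not tested.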

How the data were processed

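Poly(A)-selected RNA from sciatic nerve was sequenced as paired 150-base reads. Per the labels and methods, the authors mapped reads to GRCm38/mm10 with STAR, and CASAVA 1.9 is also named. Which release of STAR, which counting program and annotation, and whether strand was used were not given in the sources used here. As deposited by the authors, the table holds raw read counts per Ensembl gene, 1 column for each library. Their DESeq2 tables of fold changes and p-values were not used, except for the gene symbols. Columns of samples not used numbered 0.

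Members and lists were chosen with earlier results of these data known. Genes named in the text are the most abundant per kilobase, the stalk proteins and Rpsa, the 5 smallest p per direction and comparison, paralogue pairs, X-linked members, 8 members with roles of their own, and the called or most abundant genes of each list. Counts were tested with edgeR 4.0.16 (quasi-likelihood, TMM, filterByExpr, all 12 libraries, no covariates, Benjamini-Hochberg adjusted p under 0.05) in R 4.3.3. CPM are TMM-scaled, log2 CPM used a prior count of 2, and shares are of all counts. limma 3.58.1 and DESeq2 1.42.0 served as alternatives, beside other normalizations and filters, Xist as a covariate, offsets for GC content and length, each pair of groups alone and leaving out libraries. The scripts were tested on simulated data. Read-length stretches were compared over GENCODE M21 transcripts. Mice were separate animals, and p-values measure the spread between them. At 20763951 to 33191106 counts per library, counting error is small beside the spread between libraries.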

Additional observations from a re-analysis of the deposited data

Results flagged for a closer look

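On the scale of log2 CPM (log2 of the percentage for the share), a library in a group of 4 was marked where its gap to the next, divided by the group's range, was above Dixon's critical value. Of 111 such groups examined (the named members and the share of counts, in 3 groups), 6 were marked, and chance marks about 1 in 20. All 6 were WT control replicate 4500, each time the highest. It had 307 CPM of Rpl23 where the other WT control libraries had 220 to 227, 125 CPM of Rpl37 against 86.5 to 91.1, and 136 CPM of Rpl39 against 89.0 to 94.2. It had 339 CPM of Rps12 against 235 to 247, 207 CPM of Rps19 against 151 to 156, and 219 CPM of Rps27a against 156 to 163. The 6 genes share a library and are not independent. No library of the Mtmr2 KO group was marked on that scale. On the plain scale of CPM or percent 10 groups were marked, 9 of them with 4500 and 1 with Mtmr2 KO replicate 4502.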

How the results depend on the processing

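The calls depended on the spread of the Mtmr2 KO group and on the method. Counts of calls here are over the 83 members other than Rpl3l in the comparisons with the Mtmr2 KO group. In niacin-treated versus WT control they are given over all 84 and then over the 83. Medians are over all 84. Where members other than Rpl3l were called, the shares of all genes called are given with the comparisons above. In Mtmr2 KO versus WT control, members called were 7 with DESeq2 over 12 libraries and 0 to 6 with 1 library left out (6 without 4501), and 0 otherwise; the median was 0.35 to 1.08 with 1 library left out. In niacin-treated versus Mtmr2 KO, 1 member, Rpl7l1, was called without 4502 and without the 3 libraries with high Xist. Every other setting called none. The median there turned to 0.24 with limma-voom, 0.26 without 4502 and 4503, 0.40 without the high-Xist libraries, and −0.39 to 0.33 with 1 library left out. In niacin-treated versus WT control, members called of all 84 were 1 with DESeq2 over 12 libraries and 1 with no filter. They were 82 with DESeq2, edgeR or limma-voom as described, 70 with the 2 groups and offsets, and 80 without 4502 and 4503. Without the high-Xist libraries 35 were called, and with 1 library left out 0 to 77 (77 without 4502). Over the 83, in the same order, the counts were 0, 0, 81, 69, 79, 35 and, without 4502, 76. The median was 0.64 to 0.82 with 1 library left out. The median share of counts with 1 library left out was 1.76% to 1.81% in WT control, 2.00% to 3.15% in Mtmr2 KO and 2.79% to 3.33% under niacin.

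Single genes that changed sign were Rpl7l1 in Mtmr2 KO versus WT control (−0.0152 with no filter, −0.0782 to 0.151 with 1 library left out, the lowest without 4502, −0.11 without high-Xist libraries) and Rps27l (−0.0145 and −0.0149 with offsets on 12 and 8 libraries). In niacin-treated versus Mtmr2 KO, in the order limma-voom, without 4502 and 4503, and without high-Xist libraries, Rps27 had 0.0440, 0.0592 and 0.135, Rpl9 0.0364, 0.0119 and 0.139, Rps9 0.0489, 0.0405 and 0.116, and Rps3 0.125, 0.146 and 0.274. With 1 library left out they ran from −0.682 to 0.0761 for Rps27, −0.462 to 0.103 for Rpl9, −0.419 to 0.0771 for Rps9 and −0.515 to 0.209 for Rps3, lowest without 4501 and highest without 4502. With no filter the median of all genes in that comparison was −0.10. Causes were not tested. The fits on 2 groups with offsets, without pairs of libraries and without high-Xist libraries were added after the data were seen. No paired analysis was possible because the groups share no replicate numbers. Where reads are shared with other transcripts, depth does not set the precision.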
